A study of Mus musculus with 8 samples.

Results

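The erythroid programme genes described here are 9 genes of red cell formation, taken by symbol from the 37991 gene identifiers of the count table. They are the transcription factor genes Klf1, Gata1, Gfi1b and Zfpm1, the receptor gene Epor, the carbonic anhydrase genes Car1 and Car2, and the membrane protein genes Ermap and Ank1. All 9 were found, and all 9 passed the filter on low counts in both kinds of library. RNA was sequenced from Flt3- LSK cells, the bone marrow fraction of haematopoietic stem cells and early progenitors, with 24000 cells sorted for each sample. All mice were of the C57BL/6J strain. The tested samples were labelled Mut, described as Runx1 deficient, and the others were labelled WT, which carry Runx1 flanked by loxP sites (Runx1f/f). The labels give neither the recombinase that deletes Runx1 nor the age of the mice. Each group had 2 samples, and each sample name had a polyA-selected (mRNA) library and a total RNA library, 8 libraries in all. Spike-in RNA (ERCC, a set of synthetic transcripts) had been added to every sample.

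Red cells arise from multipotent progenitors through megakaryocyte-erythroid progenitors, and a few factors drive the change. GATA1, with its cofactor FOG1 (the product of Zfpm1), switches on genes of both the red cell and the platelet lineage, GFI1B is a repressor needed in both, and KLF1 activates red cell genes and favours that lineage over platelets. Erythropoietin acts through its receptor EPOR to keep committed precursors alive. Carbonic anhydrases hydrate carbon dioxide, ankyrin 1 ties the spectrin skeleton to the red cell membrane, and ERMAP is a membrane protein of erythroblasts.

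Promoter sequences were looked up as description, and their part in the changes below was not tested. For Car1, Car2 and Ank1 none was found. RefSeq promoters (GRCm38.p6, 250 bases before to 50 bases after the start of the gene) were found for 6 of the 9 genes, namely Klf1, Gata1, Gfi1b, Zfpm1, Epor and Ermap. They were searched on both strands for the words that GATA factors recognise, which are AGATAA and TGATAA and the same words ending in G. The windows of Klf1, Ermap, Epor and Gfi1b are shown because each held 1 such word, printed in capitals and read on the opposite strand in all but Gfi1b. They lie at chr8:84901732-84902031, plus strand (Klf1), chr4:119189946-119190245, minus strand (Ermap), chr9:21963527-21963826, minus strand (Epor) and chr2:28621933-28622232, minus strand (Gfi1b).
Klf1: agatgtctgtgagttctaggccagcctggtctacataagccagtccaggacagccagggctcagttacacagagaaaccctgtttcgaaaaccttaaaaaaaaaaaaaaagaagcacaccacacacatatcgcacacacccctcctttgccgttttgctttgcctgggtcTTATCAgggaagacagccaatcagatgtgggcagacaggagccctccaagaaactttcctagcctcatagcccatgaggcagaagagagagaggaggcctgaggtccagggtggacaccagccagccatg
Ermap: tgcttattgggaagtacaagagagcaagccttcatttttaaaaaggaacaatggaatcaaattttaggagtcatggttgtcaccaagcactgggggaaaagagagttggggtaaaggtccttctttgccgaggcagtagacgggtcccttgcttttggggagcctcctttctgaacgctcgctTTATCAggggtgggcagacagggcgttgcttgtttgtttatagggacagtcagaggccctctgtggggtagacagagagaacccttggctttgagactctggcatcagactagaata
Epor: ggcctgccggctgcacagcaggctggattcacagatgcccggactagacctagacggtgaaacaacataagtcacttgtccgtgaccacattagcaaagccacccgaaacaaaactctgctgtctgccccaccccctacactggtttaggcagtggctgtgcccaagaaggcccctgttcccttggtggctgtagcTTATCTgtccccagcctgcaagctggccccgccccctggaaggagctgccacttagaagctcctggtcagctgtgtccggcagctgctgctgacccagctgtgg
Gfi1b: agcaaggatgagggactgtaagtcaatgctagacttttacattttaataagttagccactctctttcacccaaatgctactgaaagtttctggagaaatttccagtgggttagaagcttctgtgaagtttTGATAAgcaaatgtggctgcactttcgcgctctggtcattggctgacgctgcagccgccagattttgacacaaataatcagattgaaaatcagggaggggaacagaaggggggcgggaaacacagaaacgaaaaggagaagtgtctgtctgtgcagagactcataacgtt
The word began 80 bases before the start site in Klf1, 67 in Ermap, 54 in Epor and 120 in Gfi1b. The windows of Gata1 and Zfpm1 held none of these GATA words. Among 32851 promoters of the same length, 29.8% held at least 1 of the 4 words. The word CCNCNCCC, which resembles KLF sites, was in the windows of Gata1, Gfi1b, Zfpm1 and Epor and in 49.5% of all promoters. The RUNX word TGTGGT was in those of Klf1 and Epor and in 16.8% of all promoters, and it shares no letters there with the GATA word.

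The mRNA libraries held between 35096252 and 37924699 gene counts each, and the total RNA libraries between 967694 and 1218437, so that the mRNA values rest on far more reads. Runx1 itself stood at 749 and 941 CPM (gene counts relative to library size, TMM-scaled) in Mut-labelled mRNA libraries, against 200 and 208 CPM in WT mRNA libraries. It was thus higher in the libraries labelled Mut (log2 fold change 2.05, edgeR adjusted p = 0.00753). Its count takes in reads from any exon, so a missing part would not show. Every direction below therefore rests on the labels. Of the genes that define the gate, Kit had 954 and 1100 CPM in Mut-labelled and 891 and 884 CPM in WT mRNA libraries, and Ly6a, which encodes Sca-1, had 32.5 and 26.04 CPM in Mut-labelled and 23.7 and 38.6 CPM in WT mRNA libraries. Flt3 was read in all of them, at 57.3 and 87.6 CPM in Mut-labelled and 117 and 155 CPM in WT libraries. The log2 fold change of Flt3 was -0.91 (edgeR adjusted p = 0.133).

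In the mRNA libraries, 5 of the 9 genes fell in the Mut-labelled samples and none rose. Across all 17128 genes tested there, 1.89% were called lower and 1.75% higher, 3.64% in all, at an adjusted p under 0.05. The 5 were Klf1, Car1, Car2, Ermap and Ank1, whose levels in Mut-labelled libraries were 5.32 to 33.5% of WT. Gata1, Gfi1b and Zfpm1, the genes of the factors shared with the platelet lineage, had log2 fold changes between -0.09 and 0.01. The median log2 fold change of the 9 was -1.58, beside -0.01 over all genes. The 9 were chosen with earlier results of these data known, so these contrasts with all genes are description only. In bulk RNA, fewer cells of a type and less RNA per cell cannot be told apart.

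**Figure D1:**
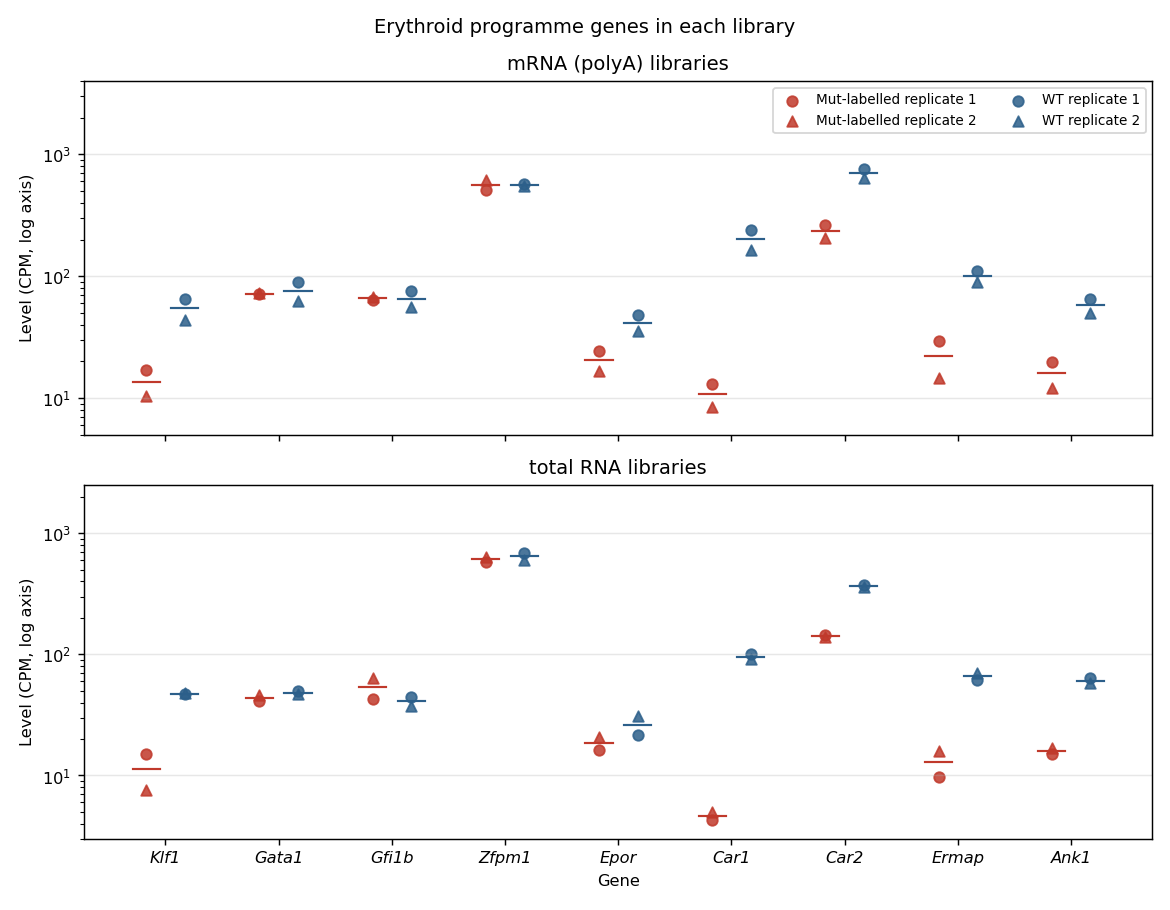
Level of each gene in each library in CPM (log axis), with Mut-labelled libraries in red and WT libraries in blue, mRNA libraries above and total RNA libraries below; circles are replicate 1, triangles replicate 2 and horizontal lines the mean of 2. In both kinds of library the Mut-labelled points of Klf1, Car1, Car2, Ermap, Ank1 and Epor lie below the WT points, while those of Zfpm1 overlap.

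Among the transcription factor genes, Klf1 (ENSMUSG00000054191) fell. Its level in Mut-labelled mRNA libraries was 16.9 and 10.3 CPM, against 65.3 and 43.8 CPM in the WT mRNA libraries. Both Mut-labelled values lay below both WT values. The log2 fold change was -2.00 (SE 0.32, 95% interval -2.79 to -1.22, edgeR adjusted p = 0.0342). Klf1 is the 1 factor gene of the 4 whose product acts mainly in red cells.

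Gata1 (ENSMUSG00000031162) had 70.9 and 72.6 CPM in Mut-labelled mRNA libraries, against 89.3 and 63.0 CPM in the WT mRNA libraries. The Mut-labelled values lay between the WT values. Its log2 fold change was -0.09 (95% interval -0.55 to 0.38, edgeR adjusted p = 0.913). Gfi1b (ENSMUSG00000026815) had 64.3 and 67.9 CPM in Mut-labelled libraries, against 75.1 and 55.8 CPM in WT libraries, and the groups again overlapped. Its log2 fold change was 0.01 (95% interval -0.41 to 0.44, edgeR adjusted p = 0.988). Zfpm1 (ENSMUSG00000049577) had 509 and 612 CPM in Mut-labelled libraries, against 576 and 552 CPM in WT libraries. Its log2 fold change was -0.01 (95% interval -0.41 to 0.39, edgeR adjusted p = 0.991). For these 3 genes the intervals leave out the log2 change of -2.00 seen for Klf1, and smaller changes remain within them.

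Epor (ENSMUSG00000006235) had 24.3 and 16.6 CPM in Mut-labelled mRNA libraries, against 48.0 and 35.4 CPM in the WT mRNA libraries. The groups did not overlap, but the difference did not pass the test (log2 fold change -1.03, SE 0.26, 95% interval -1.67 to -0.39, edgeR adjusted p = 0.113). Epor was called by DESeq2 (adjusted p = 0.0036) and also by edgeR on leaving out WT replicate 2 (adjusted p = 0.0294) and on leaving out Mut-labelled replicate 1 (adjusted p = 0.043), within a range of 0.0294 to 0.350 over the 4 fits that leave out 1 library. With Epor, 6 of the 9 genes had both Mut-labelled values below both WT values, as did 23.1% of all genes tested, and 0 of the 9 had both above, as did 21.4%.

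The carbonic anhydrase genes held the largest change of the 9. Car1 (ENSMUSG00000027556), an early gene of red cell commitment in the mouse, had 13.0 and 8.48 CPM in Mut-labelled mRNA libraries, against 238 and 165 CPM in the WT mRNA libraries. It fell 18.8-fold (log2 fold change -4.23, SE 0.30, edgeR adjusted p = 0.00565), and ranked 30 by p among the 17128 genes. Car2 (ENSMUSG00000027562), the widely expressed high-activity enzyme, had 266 and 205 CPM in Mut-labelled libraries, against 763 and 642 CPM in WT libraries. It fell 2.99-fold (log2 fold change -1.58, SE 0.20, edgeR adjusted p = 0.0176). The 95% interval of Car1 (-4.97 to -3.50) and that of Car2 (-2.06 to -1.10) did not meet.

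Car1 and Car2 are neighbours: in the RefSeq gene order of GRCm38.p6 the family members follow each other as Car13, Car1, Car3 and Car2, with only pseudogenes and a non-coding RNA gene between them. Car3, an enzyme of muscle and fat, also fell, at a low level in both groups, with 2.14 and 1.83 CPM in Mut-labelled mRNA libraries, against 10.1 and 8.19 CPM in WT mRNA libraries (log2 fold change -2.20, edgeR adjusted p = 0.0233). Car13, named here for its position, had 10.5 and 6.81 CPM in Mut-labelled libraries, against 11.9 and 13.7 CPM in WT libraries, and did not pass (log2 fold change -0.57, edgeR adjusted p = 0.468). Of the 14 carbonic anhydrase genes other than Car1 and Car2, 9 were tested, and 1 of these, Car3, was called, beside 3.64% of all genes. The most abundant of the 14, Car9, had a log2 fold change of 0.07 (edgeR adjusted p = 0.936).

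Both membrane protein genes fell. Ermap (ENSMUSG00000028644) had 29.6 and 14.5 CPM in Mut-labelled mRNA libraries, against 110 and 90.4 CPM in the WT mRNA libraries. Its 2 Mut-labelled values differed from each other by 2.04-fold, the widest gap between replicates among the 9 genes in these libraries. The log2 fold change was -2.18 (SE 0.34, edgeR adjusted p = 0.0334), and -2.79 without Mut-labelled replicate 1. Ank1 (ENSMUSG00000031543) had 19.8 and 12.1 CPM in Mut-labelled libraries, against 65.5 and 50.1 CPM in WT libraries. Its log2 fold change was -1.85 (SE 0.28, edgeR adjusted p = 0.0309), a 3.62-fold lower level.

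Scaling by the spike-in counts in place of TMM moved the median change of all genes to -0.38 in the mRNA libraries and to -1.10 in the total RNA libraries. Relative to that median, Klf1, Car1, Car2, Ermap and Ank1 stood at -2.03, -4.25, -1.60, -2.33 and -1.92 in mRNA libraries. Of these, Car1 alone passed the test under this scaling (edgeR adjusted p = 0.0198, against 0.448 to 0.999 for the others). The split of all calls turned with it, to 16 higher and 154 lower in mRNA libraries and to 13 higher and 360 lower in total RNA libraries. Spike-in counts differed within groups, taking 0.883 and 0.380% of gene and spike-in counts in Mut-labelled and 0.647 and 0.312% in WT mRNA libraries. In total RNA libraries they took 0.766 and 1.35% in Mut-labelled and 0.412 and 0.561% in WT libraries. Replicate 1 had the higher share of each group in mRNA libraries and replicate 2 in total RNA libraries. In total RNA libraries alone both Mut-labelled shares lay above both WT shares.

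Levels can be set side by side between genes only per length, for which CPM were divided by the exon length of each gene in GENCODE M21. In Mut-labelled mRNA libraries the order of mean levels was Zfpm1, Car2, Gfi1b, Gata1, Epor, Klf1, Car1, Ermap and Ank1, and in WT mRNA libraries it was Car2, Car1, Zfpm1, Gfi1b, Klf1, Gata1, Epor, Ermap and Ank1. Car1 had 8.60 ± 2.55 CPM per kb in Mut-labelled libraries and 162 ± 41.3 CPM per kb in WT libraries (SD, n = 2 each). Car1 and Zfpm1 were neighbours in the WT order, and Zfpm1 stood at 160 ± 20.9 CPM per kb in Mut-labelled libraries and 161 ± 4.93 CPM per kb in WT libraries (SD, n = 2 each). Klf1 had 8.91 ± 3.07 CPM per kb in Mut-labelled libraries and 35.7 ± 9.91 CPM per kb in WT libraries (SD, n = 2 each). Gata1 had 29.4 ± 0.468 CPM per kb in Mut-labelled libraries and 31.2 ± 7.62 CPM per kb in WT libraries (SD, n = 2 each). In WT libraries Gfi1b, Klf1 and Gata1 differed by less than their spread, as did Epor and Ermap and Car1 and Zfpm1. In Mut-labelled libraries Epor, Klf1 and Car1 differed by less than theirs. Ank1 was lowest in both groups, at 1.18 ± 0.400 CPM per kb in Mut-labelled and 4.27 ± 0.802 CPM per kb in WT libraries (SD, n = 2 each), on an exon length of 13527 bases summed over all its isoforms.

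**Figure D2:**
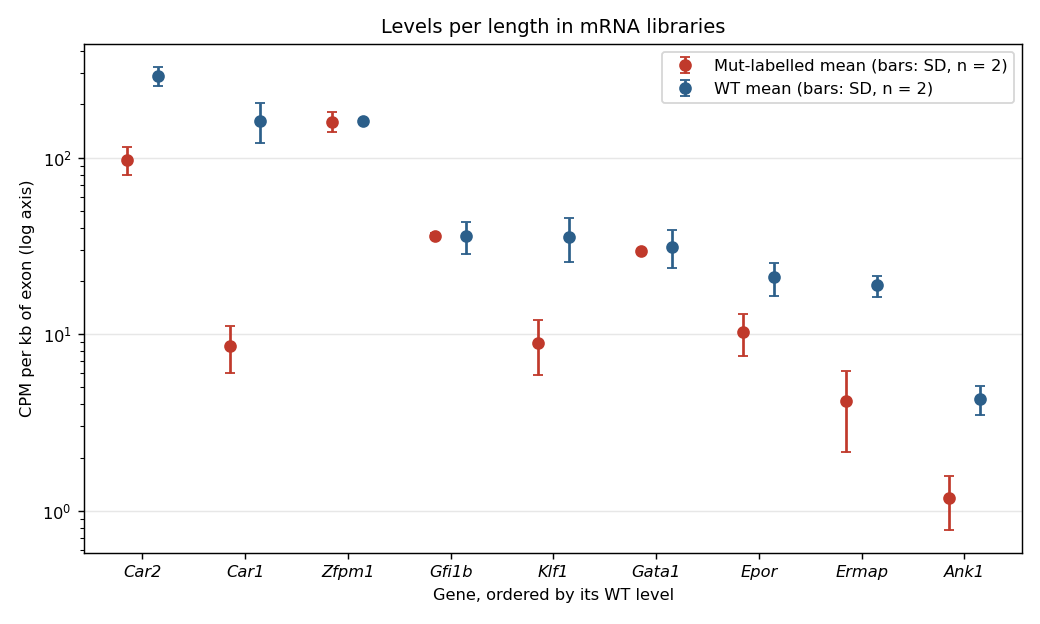
Mean level per kilobase of exon in mRNA libraries (log axis) for each gene, ordered by its WT level, with Mut-labelled means in red and WT means in blue; bars are the SD of 2 libraries. Car1 stands at 8.60 in Mut-labelled and 162 CPM per kb in WT libraries, while Zfpm1, Gfi1b and Gata1 lie at about the same height in both.

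The replicates of a group mostly differed in the same direction across these genes in mRNA libraries, an order not kept throughout in total RNA libraries. In the mRNA libraries WT replicate 1 was above WT replicate 2 for all 9 genes, beside 49.9% of all genes tested. Mut-labelled replicate 1 was above Mut-labelled replicate 2 for 6 of the 9, namely the 5 that fell and Epor, beside 49.4% of all genes. In the total RNA libraries of the same names these counts were 6 and 2 of 9, beside 49.6% of all genes for each.

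The total RNA libraries were read, by their names, as the second measurement of the same sorted samples, at lower depth. There, too, Klf1, Car1, Car2, Ermap and Ank1 fell, and the other 4 genes did not pass. Across the 10546 genes tested in total RNA libraries, 1.68% were called lower and 2.54% higher, 4.22% in all. Counting Epor and Gata1, 7 of the 9 genes had both Mut-labelled values below both WT values in total RNA libraries, as did 21.4% of all genes, and 0 of the 9 had both above, as did 22.5%. Klf1 had 15.1 and 7.54 CPM in the Mut-labelled total RNA libraries, from 14 and 9 reads, against 46.7 and 48.2 CPM in the WT total RNA libraries, from 48 reads each (log2 fold change -2.10, SE 0.36, edgeR adjusted p = 0.00113). Car1 had 4 and 6 reads in the Mut-labelled libraries, against 103 and 91 reads in the WT libraries. This was a 19.9-fold lower level (log2 fold change -4.31, SE 0.35, edgeR adjusted p = 2.6e-07), and Car1 ranked 5 by p in the total RNA libraries.

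Car2 had 144 and 139 CPM in the Mut-labelled total RNA libraries, against 372 and 361 CPM in the WT total RNA libraries (log2 fold change -1.37, edgeR adjusted p = 1.9e-05). Ermap had 9.70 and 15.9 CPM in Mut-labelled libraries, against 61.3 and 70.3 CPM in WT libraries (log2 fold change -2.32, edgeR adjusted p = 1.4e-04). Ank1 had 15.1 and 16.8 CPM in Mut-labelled libraries, against 63.3 and 58.2 CPM in WT libraries (log2 fold change -1.92, edgeR adjusted p = 4.7e-04). In each of these 3 genes the groups lay far apart compared with the gap between replicates. The 5 calls were also made under spike-in scaling in total RNA libraries, with an edgeR adjusted p between 8.2e-09 and 0.00911.

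The other 4 genes did not pass in total RNA libraries. Epor had 16.2 and 21.0 CPM in the Mut-labelled total RNA libraries, against 21.4 and 31.1 CPM in the WT total RNA libraries, from 15 to 31 reads a library. Its log2 fold change was -0.48 (95% interval -1.26 to 0.29, edgeR adjusted p = 0.627). Gata1 had 41.0 and 46.1 CPM in Mut-labelled and 49.7 and 47.2 CPM in WT libraries (log2 fold change -0.15, 95% interval -0.70 to 0.40, edgeR adjusted p = 0.873). Gfi1b had 43.1 and 63.7 CPM in Mut-labelled and 44.8 and 37.1 CPM in WT libraries (log2 fold change 0.40, 95% interval -0.19 to 0.98, edgeR adjusted p = 0.581). Its change under spike-in scaling was -0.79, beside a median of -1.10 over all genes. Zfpm1 had 582 and 642 CPM in Mut-labelled and 688 and 605 CPM in WT libraries (log2 fold change -0.08, 95% interval -0.41 to 0.25, edgeR adjusted p = 0.889).

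**Figure D3:**
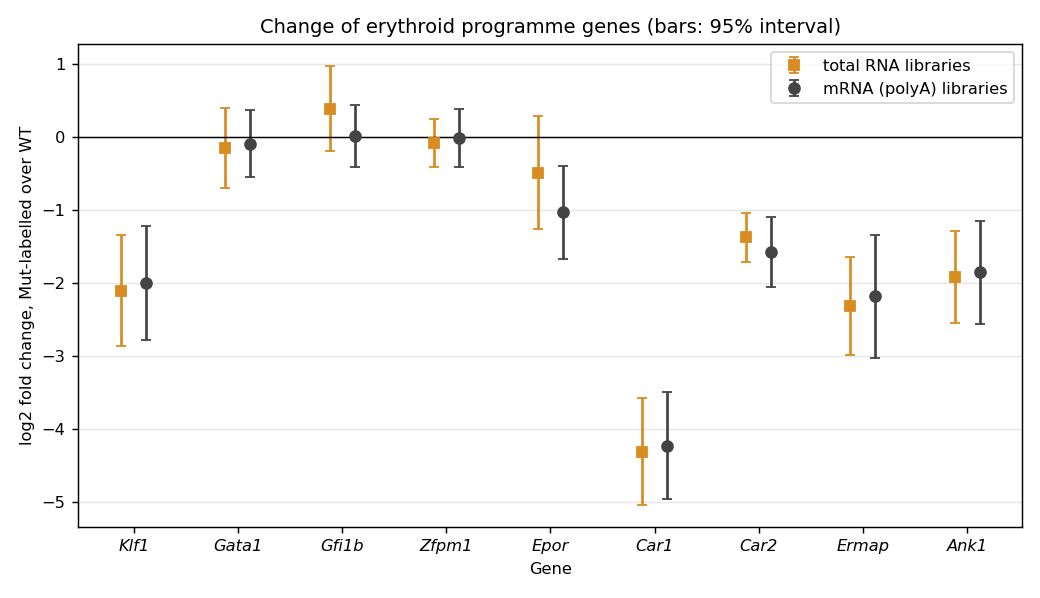
Log2 fold change of Mut-labelled over WT for each gene in total RNA libraries (orange squares) and mRNA libraries (black circles); bars are the 95% interval of the edgeR fit, and 0 is no change. Klf1, Car1, Car2, Ermap and Ank1 lie below 0 with their whole interval in both kinds, Gata1, Gfi1b and Zfpm1 have intervals that include 0 in both, and the interval of Epor includes 0 in total RNA libraries alone.

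An interaction term in a fit of all 8 libraries tested whether total RNA and mRNA libraries differed in the change. It was called for 0 of the 9 genes, and for 0 of 17416 genes tested (0%), with 687 genes at an unadjusted p below 0.05. DESeq2 called 18 genes, and edgeR with the sorted sample as a block called 111, in both cases with 0 of the 9. The largest estimates, as the change in total RNA minus that in mRNA libraries, were those of Epor (0.59 on the log2 scale, 95% interval -0.40 to 1.57) and Gfi1b (0.43, 95% interval -0.29 to 1.15). For the 5 genes that fell, the estimates lay between -0.10 (Ermap, 95% interval -1.26 to 1.05) and 0.25 (Car2, 95% interval -0.28 to 0.78). All 9 intervals included 0.

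Other genes of the red cell programme were taken from lists by role. Of 18 further red cell membrane and skeleton genes, 17 were tested in mRNA libraries, and 4 fell and 0 rose, with a median log2 fold change of -1.10. Over all genes tested there, 1.89% were called lower and 1.75% higher. Kel, the Kell blood group protease gene, had 4.801 and 3.01 CPM in Mut-labelled and 20.2 and 16.6 CPM in WT libraries (log2 fold change -2.24, edgeR adjusted p = 0.027). Add2, which encodes the skeleton protein beta-adducin, had 10.5 and 9.08 CPM in Mut-labelled and 37.8 and 27.6 CPM in WT libraries (log2 fold change -1.74, edgeR adjusted p = 0.023). Sptb, the beta-spectrin gene (-1.42, edgeR adjusted p = 0.0488), and Gypc, the glycophorin C gene (-0.76, edgeR adjusted p = 0.0469), were near the threshold. Sptb lost its call under DESeq2-type (RLE) scaling (0.0508) and without WT replicate 1 (0.0652) or Mut-labelled replicate 2 (0.066), and Gypc without any 1 of the 4 libraries (0.0692 to 0.254). The count of genes called lower changed with the library left out. It was 8 by DESeq2 and 0 under spike-in scaling, beside 864 and 154 called lower of all 17128 genes tested. In total RNA libraries 10 of the 18 were tested and 0 were called by edgeR or DESeq2. Their median was -0.59, and 4 had an unadjusted edgeR p under 0.05, as did 1559 of all 10546 genes tested. Of all genes, edgeR called 445 and DESeq2 203 in total RNA libraries. Kel was not tested there, and Add2 (-1.35), Sptb (-0.96) and Gypc (-0.63) did not pass (edgeR adjusted p = 0.0756 to 0.319).

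Of 13 genes of haem synthesis and iron uptake, edgeR called 0 in mRNA libraries and DESeq2 called 1, while 6 had an unadjusted p under 0.05. Over all 17128 genes tested there, edgeR called 624, DESeq2 called 1615 and 2682 had an unadjusted edgeR p under 0.05. Their median log2 fold change was -0.44. Alad, an early enzyme of haem synthesis, had 93.3 and 70.0 CPM in Mut-labelled and 174 and 136 CPM in WT libraries (log2 fold change -0.92, edgeR adjusted p = 0.0766). It was called without WT replicate 2 (edgeR adjusted p = 0.0208), without Mut-labelled replicate 1 (0.0269) and in the total RNA libraries (0.0332), where the call was lost without WT replicate 2 or Mut-labelled replicate 1. Slc25a37, the mitochondrial iron importer gene of erythroblasts, had a log2 fold change of 0.19 (edgeR adjusted p = 0.654). It turned negative under spike-in scaling, where the median of all genes was -0.38.

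Globin genes are the most abundant transcripts of late erythroblasts. Summed over the 7 globin genes matched, they had 31.5 and 6.57 CPM in Mut-labelled mRNA libraries, against 33.3 and 11.6 CPM in WT mRNA libraries, and the groups overlapped. Of the 4 tested, 0 were called by edgeR, 0 by DESeq2 and 0 had an unadjusted p below 0.05. Hba-a1 had a log2 fold change of -0.47 (edgeR adjusted p = 0.921) and Hbb-bt 0.61 (edgeR adjusted p = 0.710). Both have near-identical copies among which reads may be split.

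**Figure D4:**
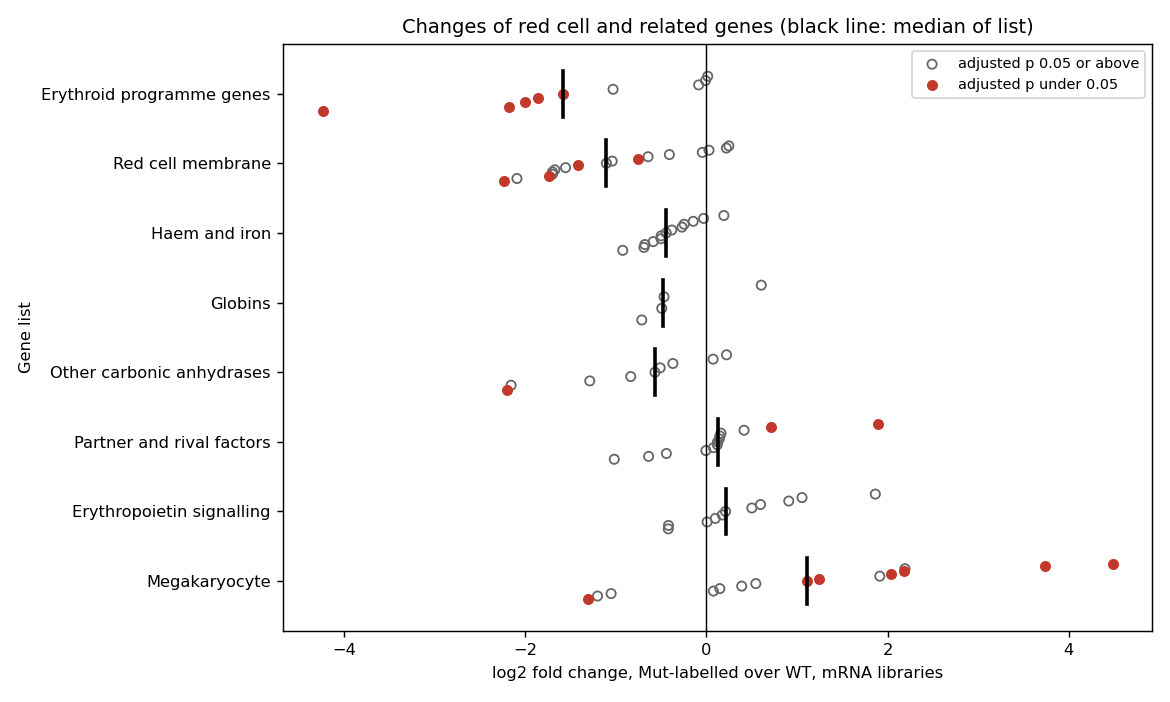
Log2 fold change of Mut-labelled over WT in mRNA libraries for every tested gene of 8 lists, one point per gene; filled red points have an edgeR adjusted p under 0.05, open points do not, and black lines are medians. The medians of the erythroid programme (-1.58) and red cell membrane genes (-1.10) lie left of 0 and that of the megakaryocyte genes (1.11) lies right of it. All lists were chosen with earlier results of these data known.

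Of 13 genes of factors that work with or against GATA1 and KLF1, 2 rose and 0 fell in the mRNA libraries. Over all genes tested, 1.75% were called higher and 1.89% lower. The median log2 fold change of the 13 genes was 0.12. Sox6, a factor that promotes red cell maturation, had 158 and 237 CPM in Mut-labelled and 40.5 and 65.8 CPM in WT libraries (log2 fold change 1.89, edgeR adjusted p = 0.0342). Lyl1, which encodes a helix-loop-helix factor related to TAL1, had a log2 fold change of 0.72 (edgeR adjusted p = 0.0461) and was not called when any 1 library was left out (0.0856 to 0.310). Both were called in total RNA libraries as well, where Lmo2, the bridging factor of the GATA1-TAL1 complex, fell by 0.63 on the log2 scale (edgeR adjusted p = 0.0491), a call lost when either WT replicate 2 or replicate 1 of the Mut-labelled samples was left out. Of 11 genes of erythropoietin receptor signalling, 0 were called by edgeR in mRNA libraries, 5 had an unadjusted p below 0.05 and DESeq2 called 4 higher. Over all 17128 genes tested there, edgeR called 624, 2682 had an unadjusted edgeR p below 0.05 and DESeq2 called 751 higher. The median of the 11 genes was 0.21. Pim1, a kinase gene induced by STAT5, and Stat5b, which encodes one of the STAT5 factors, had log2 fold changes of 0.60 and 0.50 (edgeR adjusted p = 0.307 and 0.167). Of the 10 tested in total RNA libraries, 2 were called higher by edgeR, beside 2.54% of all genes tested, while DESeq2 called 0. The 2 were Stat5b (0.62, edgeR adjusted p = 0.0326) and Socs3, a feedback inhibitor gene of cytokine signalling (1.91, edgeR adjusted p = 0.0017). Socs3 had 107 and 218 CPM in Mut-labelled and 35.2 and 54.1 CPM in WT mRNA libraries (log2 fold change 1.86, edgeR adjusted p = 0.0666).

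Among 17 relatives of the transcription factor and ankyrin genes, 15 were tested and 1 was called, beside 3.64% of all genes tested in mRNA libraries. Zfpm2, which encodes FOG2, the relative of the Zfpm1 product that acts in the heart, had 22.3 and 15.8 CPM in Mut-labelled and 1.63 and 0.889 CPM in WT mRNA libraries (log2 fold change 3.91, edgeR adjusted p = 0.0112). Klf13, the most abundant of the others, had a log2 fold change of 0.18 (edgeR adjusted p = 0.645). It was negative under spike-in scaling, where the median of all genes was -0.38.

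Markers of other cell types moved beside the red cell genes. Over all genes tested in mRNA libraries, 1.75% were called higher and 1.89% lower. Of 15 megakaryocyte genes, 6 rose and 1 fell in mRNA libraries, with a summed level of 2693 and 2433 CPM in Mut-labelled and 1164 and 1075 CPM in WT libraries. The falls of Klf1, Car1, Car2, Ermap and Ank1 thus stood beside rises of Clec1b (log2 fold change 4.49), Treml1 (3.74), Gp5 (2.18) and Itga2b (2.04), all genes of platelet surface receptors. Under spike-in scaling 0 of the 15 were called higher and 0 lower in mRNA libraries, and the calls of Sox6, Lyl1, Zfpm2 and Car3 were lost as well. Of 11 mature neutrophil genes, 10 were tested, all with a positive change, and 1 was called, Retnlg (3.56, edgeR adjusted p = 0.0425). S100a9 had 3.25 (edgeR adjusted p = 0.076). The neutrophil sum was 506 and 134 CPM in Mut-labelled and 39.2 and 47.3 CPM in WT libraries. In total RNA libraries 5 of the 11 neutrophil genes passed the filter on low counts. They had 0 to 7 reads in each WT library, and so passed through their Mut-labelled reads. All 5 were called higher, beside 2.54% of all genes tested, but the filter favoured that direction.

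Of 7 mast cell and basophil genes, 3 rose and 2 fell, beside 1.75 and 1.89% of all genes tested in mRNA libraries. Their sums were 687 and 882 CPM in Mut-labelled and 172 and 124 CPM in WT libraries. Cpa3 and Il1rl1 rose (4.33 and 3.19 on the log2 scale) and Mcpt8 fell by 3.22. Prss34 had 1 and 0 reads in the Mut-labelled mRNA libraries, against 2614 and 1693 reads in the WT mRNA libraries. B cell, T cell and macrophage lists summed to at most 95.4 CPM in any mRNA library. Of 4 T cell genes tested, 2 had a positive and 2 a negative log2 fold change, and Lck was called (-3.21, edgeR adjusted p = 0.00631) while Cd4 was not (-0.58, 0.536). Of 5 B cell genes tested, 3 were positive and 2 negative and 0 were called, with 0.03 for Cd79b and -1.63 for Cd79a (edgeR adjusted p = 0.972 and 0.477). Of 7 macrophage genes, 2 were positive, Csf1r (1.40, edgeR adjusted p = 0.0643) and Cd14 (0.87, 0.0984), and 5 were negative, with a list median of -0.56 and 0 called. None of the listed neutrophil, mast cell, T cell or macrophage genes was at 0 in all mRNA libraries. The part of these cell types in the falls of the red cell genes was not tested.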

How the data were processed

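The authors' deposited table held raw counts per gene, not normalised, in 1 column per library, with 92 rows of spike-in transcripts and 3 of rRNA, which were left out of totals and tests. The build was mm9 and the tools TopHat, featureCounts and edgeR, per the submitters' processing notes. For annotation release, strand and multiply mapped reads, the choice is not given in the sources used here, and so reads of overlapping genes may be mixed. A GENCODE M21 name table gave symbols to 32919 of 37991 identifiers, and matched 149 of 152 listed genes beside the 9 members.

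Tests between groups used edgeR 4.0.16 under R 4.3.3 (TMM scaling, its own filter on low counts, two-sided quasi-likelihood test, Benjamini-Hochberg adjustment over all genes tested, called under 0.05), after a check on simulated data. SE and 95% intervals come from that fit. DESeq2 1.42.0 was an alternative. The labels do not say whether replicates are separate animals, and p-values therefore measure only the spread between them, which may be technical. The mRNA and total RNA libraries of 1 name were read as parts of 1 sorted sample because of their names. Their deviations from the group means correlated over 10509 genes (r = 0.396 for the WT and 0.455 for the Mut-labelled samples). WT and Mut-labelled mRNA libraries of 1 number, which are different samples, gave r = 0.413. The correlation therefore cannot tell a shared sample from a shared number. The 2 libraries of a group differed beyond sampling noise (chi-square per degree of freedom 2.60 to 65.1).

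The 9 genes and all lists were chosen with earlier results of these data known. Named from each other list were the called genes with the largest change in mRNA libraries, up to 4, or else up to 2 with the most abundant; Car13, Flt3, Ly6a, Lmo2 and Socs3 were added after values were seen.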

Additional observations from a re-analysis of the deposited data

How the results depend on the processing

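Klf1, Car1, Car2, Ermap and Ank1 kept their direction under all alternatives in both kinds of library, and their calls under all but spike-in scaling of the mRNA libraries, which called 1 of the 9 genes lower. Leaving out 1 mRNA library gave log2 fold changes of -2.40 to -1.68 for Klf1, -4.57 to -3.95 for Car1 and -1.78 to -1.40 for Car2. The ranges were -2.79 to -1.75 for Ermap and -2.25 to -1.54 for Ank1. Each such fit sets 2 libraries against 1. Its spread therefore comes from the group that kept 2, and the lone library is assumed to vary like it. No gene of the 9 was called higher in any fit.

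Counts over all genes moved more. In mRNA libraries 624 genes were called, against 170 with spike-in scaling and 1615 with DESeq2. In total RNA libraries 445 were called, against 724 with no filter, 203 with DESeq2 and 273 in 1 fit over 8 libraries. For the interaction DESeq2 called 18, and leaving out 1 sample gave 0 to 1. The cause was not tested.

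WT and Mut-labelled samples share only a number. Deviations of same-numbered samples correlated (r = 0.413 in mRNA and 0.235 in total RNA libraries). A fit with the replicate number as a block called 2870 of 17128 genes in mRNA and 870 of 10546 in total RNA libraries. In mRNA libraries that fit added Epor (edgeR adjusted p = 0.000214) to the members called. It called 12 red cell membrane and 8 haem genes lower there, beside 1539 of all genes tested. For the interaction the sorted sample as block gave 111 calls and turned Ank1 to 0.020.

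Changes of uncalled genes turned sign. With 1 library left out, mRNA changes ranged from -0.30 to 0.18 for Gata1, -0.17 to 0.24 for Gfi1b, -0.14 to 0.12 for Zfpm1, -3.19 to 0.78 for Hba-a1, -0.21 to 1.13 for Hbb-bt, -0.067 to 0.21 for Car9, -0.11 to 0.17 for Cd79b and -2.45 to 0.47 for Cd79a, and that of Zfpm1 in total RNA from -0.16 to 0.019. Interaction estimates ranged from -0.39 to 0.13 for Klf1, -0.25 to 0.087 for Gata1, -0.17 to 0.044 for Zfpm1, -0.55 to 0.37 for Car1, -1.04 to 0.78 for Ermap and -0.50 to 0.44 for Ank1. Spike-in scaling gave, in mRNA libraries, -0.27 for Gfi1b, -0.14 for Slc25a37, -0.22 for Car9, -0.18 for Klf13, -0.12 for Kit, -0.18 for Cd34 and -0.39 for Cd79b. The median of all genes under that scaling was -0.38, and all of these but Cd79b lay above it. Relative to that median Gfi1b stood at 0.11. Spike-in scaling gave -0.79 for Gfi1b in total RNA, beside a median of -1.10 over all genes. Its interaction estimates were -0.53 for Gfi1b, -0.17 for Epor and -0.47 for Car2, beside a median of -0.73 over all genes. Relative to these medians, Gfi1b stood at 0.31 in total RNA. The interaction estimates then stood at 0.20 for Gfi1b, 0.56 for Epor and 0.26 for Car2, with the sign of the main fit. In total RNA libraries few reads stand behind the Mut-labelled values, with 4 and 6 for Car1, 14 and 9 for Klf1, 9 and 19 for Ermap, 14 and 20 for Ank1 and 15 and 25 for Epor.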

Other observations

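The genes whose pattern over the 4 mRNA libraries lay nearest to that of Klf1, among 10376 genes with a mean of at least 10 CPM, were Sdc3, N4bp3, Ank1, Trpc6 and Kel. Their centred log2 levels differed from those of Klf1 by a root mean square of 0.0638, 0.0743, 0.0910, 0.129 and 0.132. Ank1 is one of the 9 genes and Kel is on the red cell membrane list. Sdc3, which encodes a membrane proteoglycan, had 8.23 and 5.03 CPM in Mut-labelled and 30.2 and 22.8 CPM in WT libraries. Trpc6, a cation channel gene, had 9.97 and 6.87 CPM in Mut-labelled and 36.2 and 30.2 CPM in WT libraries. With 4 libraries in 2 groups, likeness rests on the group difference and on 1 gap within each group.

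Mean levels in WT samples were scaled separately for each kind of library. In total RNA and mRNA libraries they were 95.8 and 202 CPM for Car1 and 367 and 702 CPM for Car2, but 60.8 and 57.8 CPM for Ank1 and 647 and 564 CPM for Zfpm1. This difference between kinds was not tested.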
